A study of Mus musculus with 8 samples.

Results

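Expression of 9 genes was followed that encode steroid hormone receptors and the proteins that work with them, among 19505 genes named on the array. They were chosen by name from the platform annotation: the receptors Pgr, Esr1 and Esr2, the membrane protein Pgrmc1, the receptor cochaperones Fkbp4 and Fkbp5, and the coactivators Ncoa1, Ncoa2 and Ncoa3. Each of the 9 is represented by 1 probe set, so no choice between probe sets was needed. The exposed group comprised 4 wild-type C57BL/6J females, an inbred strain, exposed to electronic cigarette aerosol in a whole-body chamber. The liquid held nicotine at 24 mg/mL in propylene glycol and vegetable glycerin without flavouring, and sessions lasted 3 hours with 2 puffs each minute. Exposure covered 4 weeks before mating, at 5 days per week, and every day from mating to collection. The sham group comprised 4 wild-type females of the same strain that breathed room air. All 8 mice had been mated to vasectomised males, so their uteri met the hormones of early pregnancy without any embryo, and whole uterus was taken on day 4.5 of pseudopregnancy. The vehicle was not given without nicotine, so effects of nicotine and of the aerosol's other components cannot be told apart. Each array held RNA from 1 mouse, and precision is limited by the 4 arrays of a group. Values are log2 expression, group values are means ± SD over 4 mice, and differences are exposed minus sham.

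Oestrogen and progesterone act on the uterus through receptors that are transcription factors. Before hormone binds, the receptor is held in a complex built on the chaperone HSP90, in which the cochaperones FKBP52 (Fkbp4) and FKBP51 (Fkbp5) compete for the same place. FKBP52 raises the activity of the progesterone receptor, and mice without it have a uterus that does not respond properly to progesterone and are infertile. FKBP51 lowers receptor activity, and its own gene is switched on by progesterone and glucocorticoids. On DNA, the hormone-bound receptor recruits coactivators of the p160 family, which Ncoa1, Ncoa2 and Ncoa3 encode. Around day 4 of pregnancy in the mouse, progesterone dominates, the epithelium loses its progesterone receptor and the stroma gains it.

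The 9 genes did not move as a block. Both cochaperones had lower means in exposed uteri, Fkbp5 by 1.57-fold and Fkbp4 by 1.28-fold. The other 7 genes had higher means, by at most 1.25-fold (Pgr). None of the 9 passed limma's test with Benjamini-Hochberg adjusted p-values computed over 22206 probe sets (adjusted p from 0.838 to 0.993), of which 0% passed. An unadjusted limma p under 0.05 was reached by 2 of the 9 members, Fkbp5 and Fkbp4, against 5.42% of all probe sets in either direction and 2.5% in the lower direction. The exposed and sham values overlapped for all 9 members, where 2.73% of probe sets had groups that did not overlap. The median difference of the 9 was 0.16, beside -0.00054 over all named genes. It was 0.11 without exposed mouse 2 and 0.055 without exposed mice 2 and 4.

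**Figure D1:**
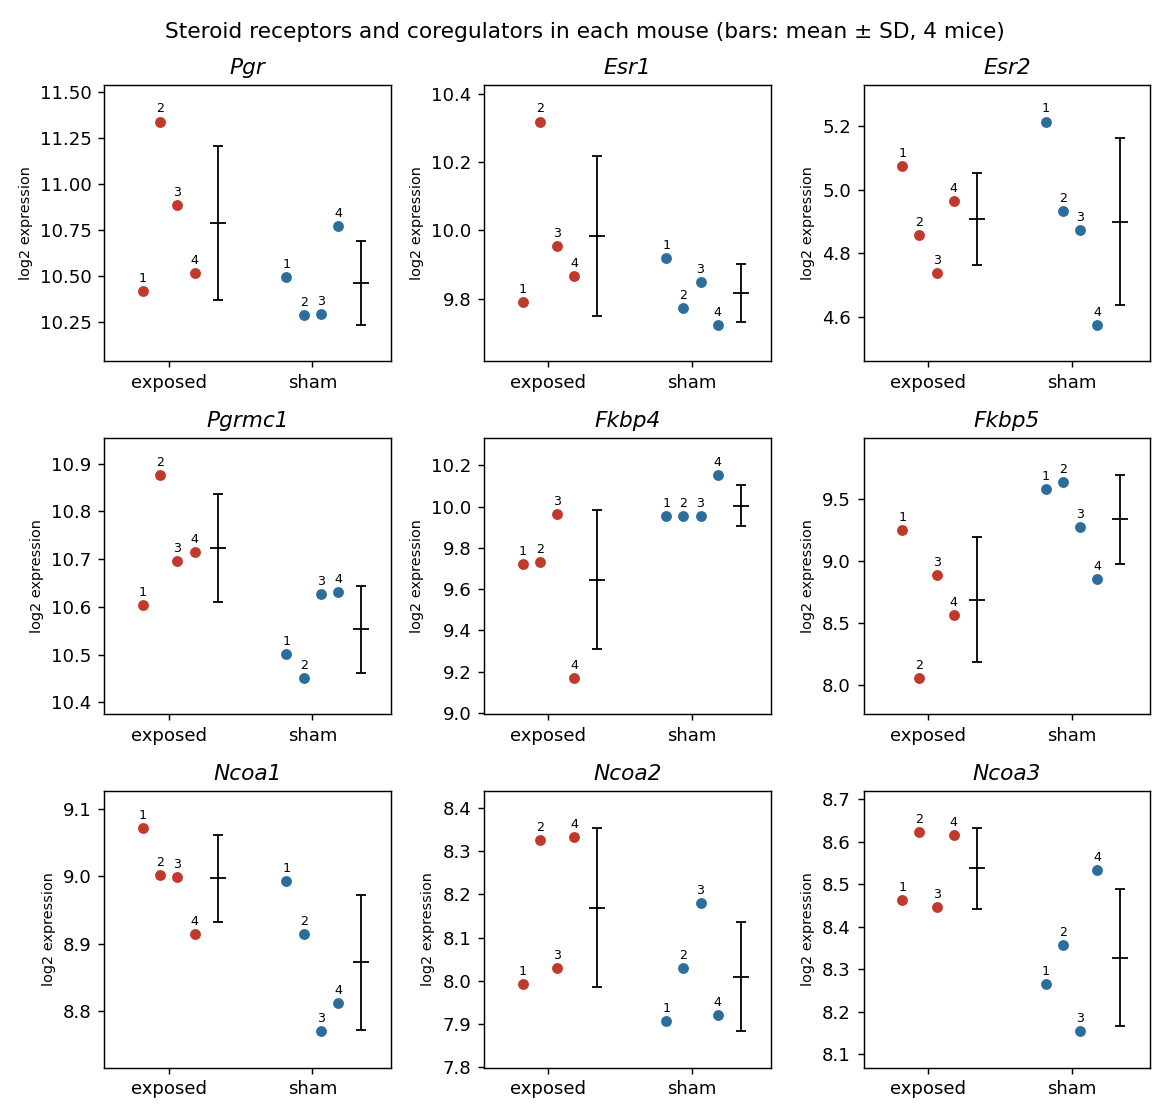
Log2 expression (vertical axes, each with its own range) of the 9 genes in 4 exposed and 4 sham mice. Points are single mice with their number, and bars are the group mean ± SD. Exposed mouse 2 is the highest of all 8 for Pgr, Esr1, Pgrmc1 and Ncoa3 and the lowest for Fkbp5, and exposed mouse 4 is the lowest for Fkbp4.

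The uterine origin of the tissue was checked against marker genes. Of the measured markers, 10 of 10 for epithelium, 10 of 10 for stroma and 9 of 10 for smooth muscle lay above the array median of 7.08, while 6 of 6 for ovary and 8 of 8 for adipocytes lay below it, as means over the 8 mice. Of 5 oviduct and ciliated cell markers, 3 lay below the array median. The others were Ovgp1, with means of 9.13 in exposed and 8.84 in sham mice, and Pax8, with 9.22 and 9.17. Adipocyte signal was higher in exposed mice 1 and 2, where the mean of the 8 markers was 6.07 and 6.42, against 5.12 and 5.38 in exposed mice 3 and 4 and 5.10 to 5.49 in sham mice. Fabp4, which encodes the fatty acid binding protein of fat cells, was 7.41 and 8.87 in exposed mice 1 and 2, above the array median, against 5.45 and 5.63 in exposed mice 3 and 4 and 5.06 to 6.56 in sham mice. Exposed mice 2 and 4 correlated least with the other arrays (mean r of 0.982 and 0.977, against 0.986 to 0.987 for the other 6 mice). Exposed mouse 4 also stood apart in the gland list (mean of 8 markers 9.03, the other exposed mice 6.78 to 8.02, sham mice 6.71 to 7.54). The list did not move together in that mouse: Prss28, Prss29 and Spink1 were high, while Cxcl15 and Foxa2 were the lowest of the 8 mice. In bulk tissue, fewer cells of a type and less RNA per cell cannot be told apart.

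Pgr encodes the progesterone receptor. Its expression was 10.42, 11.34, 10.89 and 10.52 in exposed mice 1 to 4, and 10.50, 10.29, 10.30 and 10.78 in sham mice 1 to 4. Exposed mice 2 and 3 lay above every sham mouse, while exposed mice 1 and 4 lay within the sham range. The means were 10.79 ± 0.42 in exposed and 10.47 ± 0.23 in sham mice, a difference of 0.33 with a 95% interval of -0.12 to 0.77 (limma, adjusted p = 0.838). Much of it came from exposed mouse 2: without this mouse the difference was 0.14, and without exposed mice 2 and 4 it was 0.19.

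The mouse with the highest Pgr in each group also had the lowest smooth muscle signal. The mean of the 10 smooth muscle markers was lowest among exposed mice in mouse 2 (10.28, the others 10.65 to 10.85) and lowest among sham mice in mouse 4 (10.60, the others 10.95 to 11.00). Exposed mouse 3, second for Pgr among exposed mice, was level with exposed mouse 1, the lowest of them for Pgr (both 10.85). Sham mouse 1, second for Pgr among sham mice, was level with sham mouse 3 (both 11.00). All 10 of these markers had lower means after exposure, and the list mean ranged from 10.28 to 10.85 in exposed and from 10.60 to 11.00 in sham mice. The mean of 10 stromal markers was 10.24 in exposed mouse 2, against 10.48 to 10.55 in the other exposed mice and 10.53 to 10.57 in sham mice. The 10 epithelial markers, of which 3 had higher and 7 lower means, averaged 8.46 to 8.87 in exposed and 8.82 to 9.21 in sham mice. Exposed mouse 2, the highest for Pgr and Esr1, also had the highest adipocyte mean (6.42). Exposed mouse 1, next for the adipocyte mean (6.07), was the lowest exposed mouse for Pgr and Esr1. The part of cell composition in the Pgr and Esr1 values was not tested.

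Esr1 encodes oestrogen receptor alpha, the main oestrogen receptor of the uterus. It was 9.79, 10.32, 9.95 and 9.87 in exposed mice 1 to 4, and 9.92, 9.77, 9.85 and 9.72 in sham mice 1 to 4. Only exposed mouse 2 stood well above the others, and exposed mouse 3 was just above the highest sham mouse. The difference was 0.17 with a 95% interval of -0.10 to 0.43 (limma, adjusted p = 0.843), and it was 0.054 without exposed mouse 2. The spread was wider in exposed mice (SD 0.23) than in sham mice (SD 0.086).

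Esr2 encodes oestrogen receptor beta, which in the rodent is known best from the ovary. It was dim on every array, between 4.74 and 5.08 in exposed and between 4.58 and 5.21 in sham mice, all below the array median of 7.08. The exposed range lay inside the sham range. The difference was 0.0096 with a 95% interval of -0.29 to 0.31 (limma, adjusted p = 0.993). Its sign turned with the mouse left out, from -0.098 without sham mouse 4 to 0.11 without sham mouse 1.

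Pgrmc1 encodes a haem-binding membrane protein, named for its association with progesterone binding, that is unrelated in structure to the nuclear receptors. It was 10.60, 10.88, 10.70 and 10.72 in exposed mice 1 to 4, and 10.50, 10.45, 10.63 and 10.63 in sham mice 1 to 4. Exposed mice 2, 3 and 4 lay above every sham mouse, and exposed mouse 1 lay within the sham range. The difference was 0.17 with a 95% interval of -0.034 to 0.38 (limma, unadjusted p = 0.0935, adjusted p = 0.838), and it was 0.12 without exposed mouse 2 and 0.097 without exposed mice 2 and 4.

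**Figure D2:**
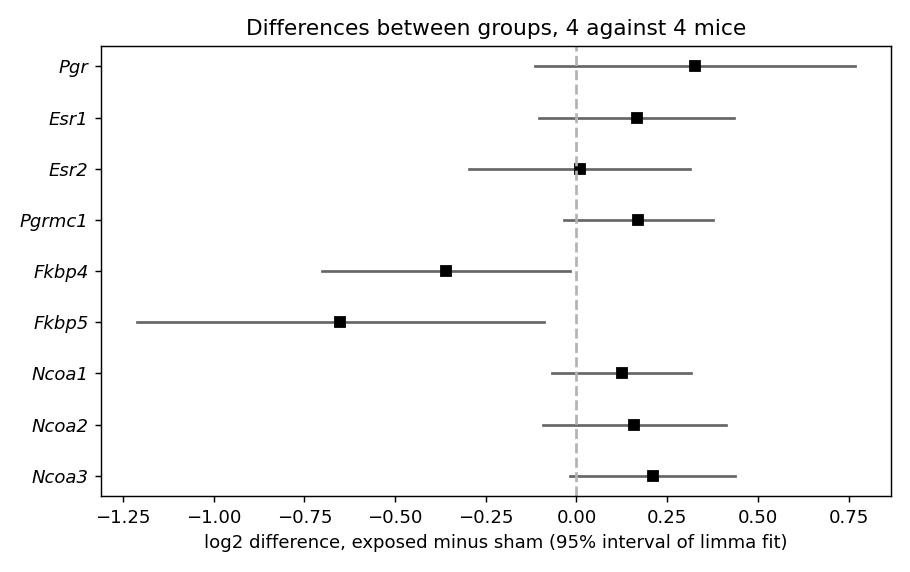
Log2 differences, exposed minus sham (horizontal axis), for the 9 genes, with squares for the estimate and lines for the 95% interval of the limma fit over 4 and 4 mice. The intervals of Fkbp4 and Fkbp5 lie below 0 before adjustment for the number of probe sets, and the other 7 include 0.

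Fkbp5, whose protein lowers receptor activity and whose gene responds to progesterone, showed the largest difference of the 9. Its expression was 9.26, 8.05, 8.88 and 8.56 in exposed mice 1 to 4, and 9.58, 9.64, 9.27 and 8.86 in sham mice 1 to 4. Exposed mice 2 and 4 lay below every sham mouse, exposed mouse 3 lay just above sham mouse 4, and exposed mouse 1 was close to sham mouse 3. All 4 exposed mice were below the sham mean. The means were 8.69 ± 0.51 in exposed and 9.34 ± 0.36 in sham mice, a difference of -0.65 with a 95% interval of -1.21 to -0.09 (limma, unadjusted p = 0.0272, adjusted p = 0.838). It was the only member past 1.5-fold, a size that 1.09% of probe sets reached in either direction. The difference was -0.44 without exposed mouse 2 and -0.27 without exposed mice 2 and 4, and its largest size, -0.84, came without exposed mouse 1. In each group the mouse with the lowest Fkbp5 was also the one with the lowest smooth muscle mean, exposed mouse 2 (8.05 and 10.28) and sham mouse 4 (8.86 and 10.60), and all 10 smooth muscle markers had lower means after exposure. Exposed mouse 2 also had the highest adipocyte mean, while exposed mouse 1, next for that mean, had the highest Fkbp5 among exposed mice. The part of cell composition in the Fkbp5 values was not tested.

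Fkbp4, whose protein supports progesterone receptor activity, was 9.720, 9.730, 9.962 and 9.169 in exposed mice 1 to 4, and 9.953, 9.956, 9.955 and 10.155 in sham mice 1 to 4. Exposed mice 1, 2 and 4 lay below every sham mouse, and exposed mouse 3 alone overlapped them. The sham values of mice 1 to 3 were nearly equal. The difference was -0.36 with a 95% interval of -0.70 to -0.017 (limma, unadjusted p = 0.0415, adjusted p = 0.838). Exposed mouse 4 carried much of it: the difference was -0.20 without this mouse and -0.16 without exposed mice 2 and 4. Without exposed mouse 3 it was -0.47. Exposed mouse 4 had the lowest epithelial mean of the 8 mice (8.46), although the epithelial marker Krt7 was highest in it. Its gland mean was the highest (9.03), although the gland markers Cxcl15 and Foxa2 were lowest in it. The part of cell composition in the Fkbp4 values was not tested.

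The promoters of Fkbp4 and Fkbp5, the members of smallest p, and of Pgr, the receptor that both cochaperones serve, are shown so that their sequence can be set beside the values. The RefSeq promoter table (GRCm38.p6) held 8 windows for 7 of the 9 members. The 250 bases before each start are given 5′ to 3′ on the gene's strand, with capitals marking any match to a heat shock element of paired units (GAANNTTC or TTCNNGAA), a core of the progesterone and glucocorticoid response element (TGTTCT or AGAACA), a core of the oestrogen response element (GGTCA or TGACC), a GC box (GGGCGG or CCGCCC) or a CCAAT box (CCAAT or ATTGG).
Fkbp4, chr6:128438657-128438906, minus strand: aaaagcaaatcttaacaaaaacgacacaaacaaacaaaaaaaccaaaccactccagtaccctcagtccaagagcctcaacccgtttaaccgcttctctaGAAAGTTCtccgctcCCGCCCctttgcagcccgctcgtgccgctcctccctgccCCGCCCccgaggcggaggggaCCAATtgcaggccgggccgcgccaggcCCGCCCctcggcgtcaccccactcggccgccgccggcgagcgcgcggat
Fkbp5, chr17:28486150-28486399, minus strand: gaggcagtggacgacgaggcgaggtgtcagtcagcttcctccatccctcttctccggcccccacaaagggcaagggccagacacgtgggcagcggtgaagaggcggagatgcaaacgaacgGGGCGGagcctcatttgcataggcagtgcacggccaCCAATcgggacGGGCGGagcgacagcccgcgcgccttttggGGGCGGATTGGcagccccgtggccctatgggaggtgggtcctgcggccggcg
Pgr, chr9:8899583-8899832, plus strand: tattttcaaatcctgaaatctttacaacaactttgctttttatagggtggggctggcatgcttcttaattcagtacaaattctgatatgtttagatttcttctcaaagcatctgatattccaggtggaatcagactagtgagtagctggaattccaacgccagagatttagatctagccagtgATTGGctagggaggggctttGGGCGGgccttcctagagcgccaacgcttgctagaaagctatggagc

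Both cochaperone promoters held 3 GC boxes, and they held 1 (Fkbp4) and 2 (Fkbp5) CCAAT boxes. A GC box was found in 32.7% and a CCAAT box in 33.8% of all 32851 windows of the same length. The Fkbp4 window held a heat shock element, the letters bound by heat shock factor, starting 151 bases before the start. It was the only such match among the 8 member windows, and 12.8% of all windows held at least 1. The Fkbp4, Fkbp5 and Pgr windows held no core of the progesterone and glucocorticoid response element, which 16.1% of all windows held, and no core of the oestrogen response element, which 35.2% held. In Fkbp5, a GC box and a CCAAT box on the opposite strand adjoin, starting 52 and 46 bases before the start. In Pgr the CCAAT box starts 67 and the GC box 47 bases before the start. The hormone response elements known for FKBP5 in human cells lie in its introns, outside such a window. A match here describes the letters and is not evidence of binding.

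The coactivators had slightly higher means after exposure, and none differed by more than 1.16-fold. Ncoa3, which encodes SRC-3, was 8.46, 8.62, 8.45 and 8.62 in exposed mice 1 to 4, and 8.26, 8.36, 8.15 and 8.53 in sham mice 1 to 4. Every exposed mouse exceeded sham mice 1, 2 and 3, and sham mouse 4 lay within the exposed range. The difference was 0.21 with a 95% interval of -0.019 to 0.44 (limma, unadjusted p = 0.0680, adjusted p = 0.838). Without sham mouse 4 it was 0.28 at an unadjusted p of 0.0226 in limma (adjusted p = 0.817), and without exposed mice 2 and 4 it was 0.13.

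Ncoa1 encodes SRC-1, whose loss in mice blunts the uterine response to steroid hormones. It was 9.072, 9.002, 8.999 and 8.915 in exposed mice 1 to 4, and 8.993, 8.914, 8.770 and 8.812 in sham mice 1 to 4. Exposed mice 1, 2 and 3 lay above every sham mouse. The difference was 0.12 with a 95% interval of -0.068 to 0.32 (limma, adjusted p = 0.841). Ncoa2 encodes SRC-2, which the progesterone receptor needs in the mouse uterus for implantation. It was 7.99, 8.32, 8.03 and 8.33 in exposed mice 1 to 4, and 7.91, 8.03, 8.18 and 7.92 in sham mice 1 to 4. Exposed mice 2 and 4 lay above the sham mice, and exposed mice 1 and 3 lay among them. The difference was 0.16 with a 95% interval of -0.09 to 0.41 (limma, adjusted p = 0.842). It was 0.11 without exposed mouse 4, and 0.00093 without exposed mice 2 and 4.

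**Figure D3:**
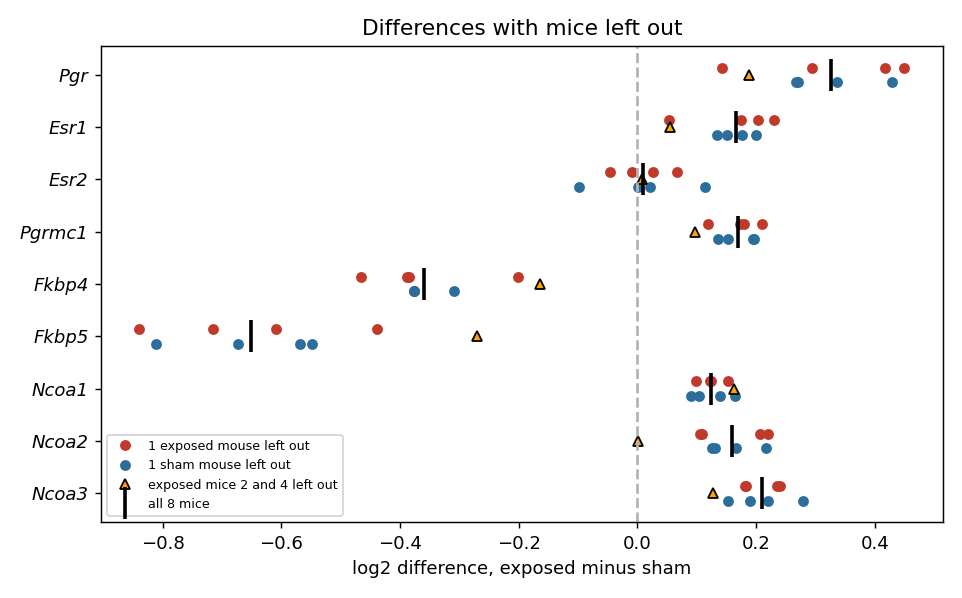
Log2 differences, exposed minus sham (horizontal axis), for the 9 genes with all 8 mice (black lines), with 1 exposed mouse left out (red), with 1 sham mouse left out (blue) and with exposed mice 2 and 4 left out (triangles). Fkbp5 runs from -0.84 to -0.44 and Fkbp4 from -0.47 to -0.20 with 1 mouse left out, and Esr2 is the gene whose sign turns.

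The spread of the members between mice was close to that over all probe sets. Exposed mouse 2 was the highest of the 8 mice for 4 members (Pgr, Esr1, Ncoa3 and Pgrmc1) and the lowest for Fkbp5. Exposed mouse 3 was the extreme for none. The SD between mice was larger among exposed than among sham mice for 6 of the 9 members, or 66.7%, beside 65.8% of all probe sets. Its median over the members was 0.184 in exposed and 0.126 in sham mice, beside 0.176 and 0.134 over all probe sets.

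Pgr and Fkbp5 ran in opposite directions across the 8 mice. Among exposed mice, mouse 2 had the highest Pgr and the lowest Fkbp5, and mouse 1 the lowest Pgr and the highest Fkbp5. The same held among sham mice for mouse 4, with the highest Pgr and the lowest Fkbp5, and mouse 2, with the lowest Pgr and the highest Fkbp5. Over all 8 mice Pearson's r was -0.83 (exact permutation p = 0.0109, 0.0327 after Benjamini-Hochberg adjustment over 3 pairs examined) and Spearman's rho was -0.83 (exact permutation p = 0.0154, adjusted 0.0461), two-sided. Exposed mice 2 and 3 lay farthest from the median of Pgr. Without them r was -0.58 over 6 mice and did not pass (exact permutation p = 0.229). Passing the test thus depended on exposed mice 2 and 3, and 6 mice are too few to show whether the relation itself does. The 4 mice of a group are too few for a value within it, and the group difference in both genes is part of the pooled value.

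**Figure D4:**
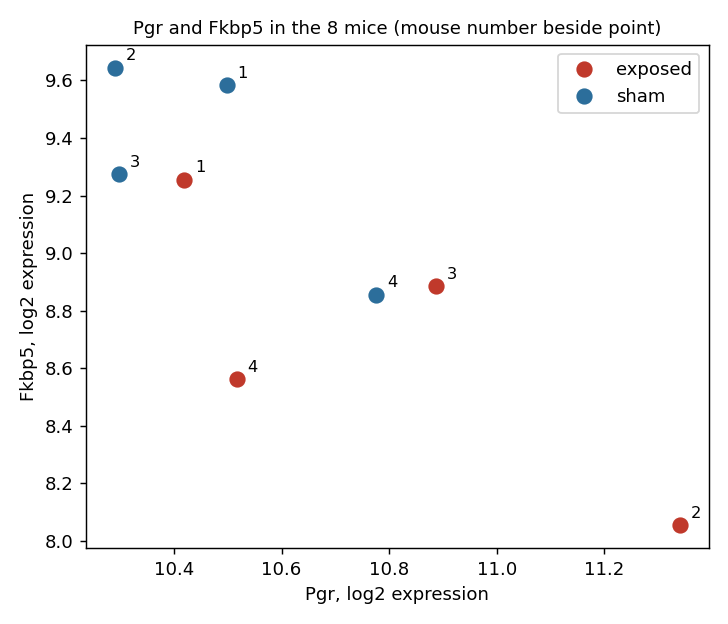
Fkbp5 (vertical axis) against Pgr (horizontal axis), both log2 expression, in 4 exposed and 4 sham mice with the mouse number beside each point. Exposed mouse 2 sits at 11.34 for Pgr and 8.05 for Fkbp5, far from the other mice, and sham mouse 2 at 10.29 and 9.64 lies at the other end.

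The other pairs gave weaker relations. For Pgr and Esr1, r was 0.80 (exact permutation p = 0.0354, adjusted 0.0532) and rho 0.60 (exact permutation p = 0.132, adjusted 0.198). Without exposed mice 2 and 3 r was -0.31 over 6 mice (exact permutation p = 0.55). Leaving them out narrows the range of Pgr, and 6 mice are too few to show whether the relation depends on them. For Fkbp4 and Fkbp5, which had lower means in the same direction, r was 0.43 (exact permutation p = 0.295, adjusted 0.295) and rho 0.26 (exact permutation p = 0.536, adjusted 0.536), and r was 0.46 without exposed mice 1 and 4 (exact permutation p = 0.263). The lowest exposed values of the cochaperones came from different mice, mouse 4 for Fkbp4 and mouse 2 for Fkbp5.

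Genes with the most similar pattern over the 8 mice were sought among 9748 named genes above the array median, as a description without a test because they were picked for their likeness. For Pgr they were Wdsub1 (Pearson's r of 0.97), Etfbkmt (0.95), Mfap1b (0.95) and Ramp3 (0.95), the last a receptor activity-modifying protein on the list of oestrogen-responsive genes. For Esr1 they were Col27a1 (0.95), Atp6v0a1 (0.94), Agmo (0.93) and Astn2 (0.92). For Fkbp5 they were Rabif (0.98), Ipo4 (0.98), Sh3pxd2a (0.98) and Tubb6 (0.97), whose differences were -0.22, -0.20, -0.31 and -0.59. The points share the same 8 arrays, and exposed mouse 2 was the extreme mouse for all 3 of these members.

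The chaperone machinery that FKBP52 and FKBP51 join had lower means throughout. All 12 measured HSP90 chaperone and cochaperone genes of 17 listed had lower means in exposed uteri, with differences from -0.42 to -0.07 and a median of -0.19, beside a median of -0.00054 over all named genes, of which 49.8% had higher means. None passed adjustment over all probe sets (limma, adjusted p = 0.838 for the genes named next), and 2 of the 12 reached an unadjusted p under 0.05, where 2.5% of probe sets did so in the lower direction. Hspa4, an HSP110 family member, was 10.38, 10.28, 10.21 and 9.98 in exposed mice 1 to 4, and 10.45, 10.62, 10.46 and 10.45 in sham mice 1 to 4 (difference -0.28 ± 0.10, SE). Its groups did not overlap, which held for 1 of the 12 genes and for 2.73% of all probe sets. Hspa4 was named for its small p, which favours such a gap. Ptges3, which encodes the HSP90 cochaperone p23, was 8.01, 8.10, 8.21 and 7.65 in exposed mice 1 to 4, and 8.30, 8.48, 8.28 and 8.21 in sham mice 1 to 4, with exposed mouse 3 barely inside the sham range (difference -0.32 ± 0.13, SE, and -0.21 without exposed mouse 4). Hsp90aa1, an HSP90 gene, and Stip1, which links HSP70 to HSP90, are given as further members outside the naming rule, chosen after their values were seen. Their differences were -0.36 and -0.42, which were -0.23 and -0.25 without exposed mouse 4 and -0.062 and -0.066 without exposed mice 2 and 4.

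These 12 genes were lower on average in every exposed mouse than the sham mean, by unequal amounts. Genes below the sham mean numbered 6, 12, 12 and 11 of the 12 in exposed mice 1 to 4. In sham mice 1 to 4 they numbered 6, 7, 3 and 10, so exposed mouse 1 was within the sham range. The mean deviation over the list was -0.047, -0.26, -0.12 and -0.42 in exposed mice 1 to 4, and 0.024, 0.020, 0.036 and -0.080 in sham mice 1 to 4. Exposed mouse 4, the lowest of all for Fkbp4, was also the lowest here, and exposed mouse 1 lay above sham mouse 4. All 12 stayed lower without any 1 of the 8 mice, with medians from -0.23 to -0.15. Without exposed mice 2 and 4, 10 of 12 were lower and the median was -0.064. Cell type markers differed in both directions: 10 of 10 smooth muscle markers and 7 of 10 epithelial markers had lower means after exposure. Higher means were found for 8 of 8 endothelial, 5 of 5 oviduct and ciliated cell and 7 of 8 adipocyte markers, beside 49.8% of all named genes. Exposed mouse 4, the lowest for the chaperones, had the lowest epithelial mean (8.46, against 8.79 to 8.87 in the other exposed mice and 8.82 to 9.21 in sham mice). The epithelial markers did not move together in it. Krt8, Krt19, Cdh1, Cldn3 and Cldn7 were the lowest of the 8 mice, while Krt7 was the highest (9.65). Exposed mouse 4 also had the highest gland mean, with the gland proteinase genes Prss28 at 12.64 and Prss29 at 12.04 and the secreted inhibitor gene Spink1 at 12.22. By contrast, the gland markers Cxcl15 (6.51) and Foxa2 (7.16) were lower in it than in any other mouse. The part of cell composition in the chaperone values was not tested.

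Other coregulators went both ways. Of 17 measured coactivators outside the p160 family, 6 had higher and 11 lower means, with a median of -0.07, and 0 reached an unadjusted p under 0.05 in limma or passed adjustment. The median was -0.033 without exposed mice 2 and 4, with 4 higher and 13 lower, and it ran from -0.11 without sham mouse 3 to -0.034 without sham mouse 2. Sra1, the steroid receptor RNA activator gene, differed by -0.32 ± 0.15 (SE) and Pelp1, a coactivator of oestrogen receptor, by -0.29 ± 0.14. Without exposed mouse 2 the difference of Sra1 was -0.19, without exposed mice 2 and 4 it was -0.083, and without exposed mouse 4 that of Pelp1 was -0.15. Pelp1 ranged from 6.38 to 7.01 in exposed and from 7.05 to 7.22 in sham mice, without overlap. That held for 1 of the 17, beside 2.73% of all probe sets, and Pelp1 was named for its small p. Of 12 measured corepressors, 6 were higher and 6 lower, with a median of -0.05 and 0 at an unadjusted p under 0.05 in limma. Without exposed mice 2 and 4, 8 were higher and 4 lower and the median was 0.031. With 1 mouse left out the median ran from -0.069 without exposed mouse 3 to -0.023 without sham mouse 3. Tbl1xr1 and Gps2, both subunits of the NCoR corepressor complex, differed by 0.23 ± 0.12 and 0.17 ± 0.09 (SE). The exposed values of Gps2 (7.86 to 8.12) lay above all sham values (7.75 to 7.80), and the difference was 0.11 without exposed mouse 2. Groups did not overlap for 1 of the 12 corepressors, beside 2.73% of all probe sets, and Gps2 was named for its small p. Without exposed mice 2 and 4 that of Tbl1xr1 was 0.07.

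**Figure D5:**
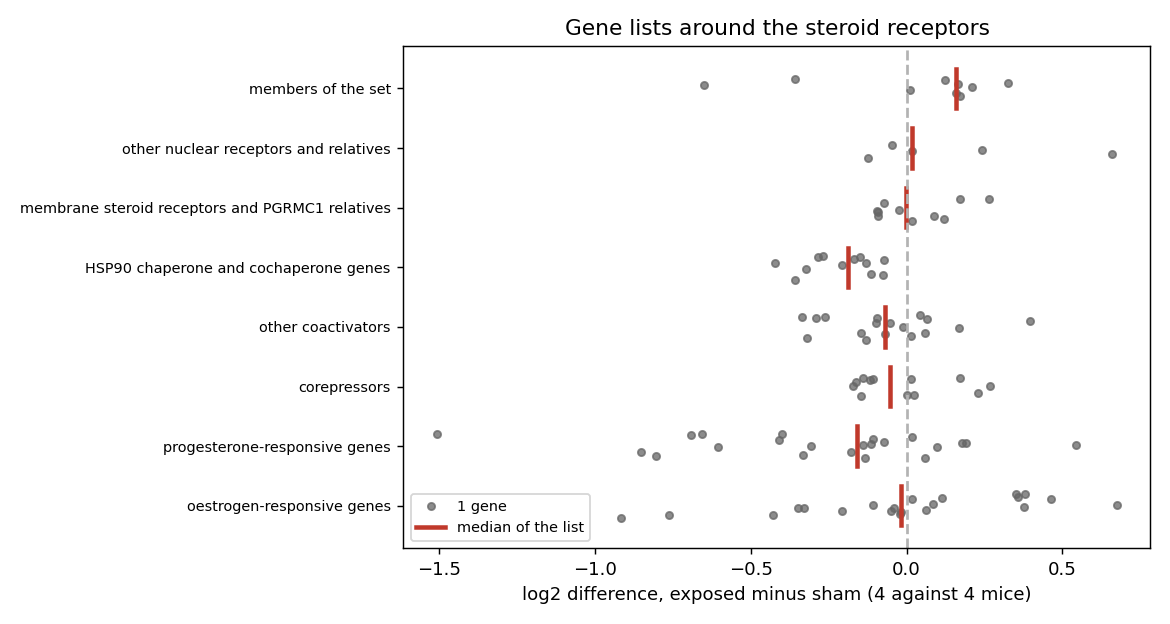
Log2 differences, exposed minus sham (horizontal axis), of the 9 members and of the measured genes of 7 lists. Points are genes and red lines list medians. All 12 HSP90 chaperone and cochaperone genes lie below 0 with a median of -0.19, while corepressors, membrane receptors and oestrogen-responsive genes lie on both sides.

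Among the other nuclear receptors, Nr3c2, the mineralocorticoid receptor, showed a larger difference than any of the 7 members with higher means. It was 6.99, 8.07, 7.19 and 7.29 in exposed mice 1 to 4, and 6.79, 6.73, 6.32 and 7.06 in sham mice 1 to 4. Exposed mice 2, 3 and 4 lay above every sham mouse, and the difference was 0.66 with a 95% interval of 0.15 to 1.17 (limma, unadjusted p = 0.0166, adjusted p = 0.838). Without exposed mouse 2 it was 0.43 and without exposed mice 2 and 4 it was 0.37. Nr3c1, the glucocorticoid receptor, through which Fkbp5 is also induced, was 7.50 to 7.60 in exposed and 6.95 to 7.52 in sham mice (difference 0.24 ± 0.12, SE), and 0.12 without sham mouse 3. Of the 5 measured genes of this list of 7, 3 had higher and 2 lower means (median 0.02, from -0.026 without exposed mouse 2 to 0.065 without exposed mouse 3), and 1 reached an unadjusted p under 0.05, beside 2.91% of probe sets in the higher direction.

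The membrane steroid receptors and relatives of Pgrmc1 divided evenly, with 5 of 10 higher and 5 lower (median -0.0026, from -0.091 without exposed mouse 3 to 0.099 without exposed mouse 1). Cyb5d2, a gene of the same haem-binding family as Pgrmc1, differed by 0.26 ± 0.12 (SE) and Paqr6, a membrane progestin receptor, by 0.12 ± 0.10. The difference of Cyb5d2 was 0.14 without exposed mice 2 and 4, and that of Paqr6 ran from 0.065 without exposed mouse 2 to 0.18 without exposed mouse 4. None of the 10 reached an unadjusted p under 0.05 in limma, and 0 passed adjustment.

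Downstream of the receptors, genes that respond to progesterone in the mouse uterus had lower means for 16 of 22 measured, with a median of -0.16, where 49.8% of all named genes had higher means and the median was -0.00054. None passed adjustment over all probe sets in limma. An unadjusted p under 0.05 was reached by 2 of the 22, both with lower means, beside 2.5% of probe sets in the lower direction: Sgk1, a kinase of ion transport, at -0.85 ± 0.36 (SE), and Sox17, a transcription factor, at -0.61 ± 0.26 (both adjusted p = 0.838). Exposed mouse 1 was high for Sgk1 (9.23, against 7.67 to 7.76 in the other exposed mice and 8.20 to 9.34 in sham mice). Without exposed mice 2 and 4 the difference was -0.47 for Sgk1 and -0.16 for Sox17, and that of Sox17 was -0.31 without exposed mouse 4 alone. The list median was -0.0073 without exposed mice 2 and 4, with 10 higher and 12 lower. Without exposed mouse 1 it was -0.38, and without sham mouse 4 it was -0.29. The 21 measured oestrogen-responsive genes had 10 higher and 11 lower means and a median of -0.02, with 0 at an unadjusted p under 0.05 in limma. The median was 0.085 with 12 higher without sham mouse 4, -0.083 with 8 higher without exposed mouse 2, and -0.056 with 8 higher without exposed mice 2 and 4. Sham mouse 4 was the highest of the 8 mice for several of these genes, chosen here after their values were seen. Ltf, which encodes lactoferrin, was 6.27 to 9.09 in exposed mice, against 11.67 in sham mouse 4 and 6.69 to 9.19 in the other sham mice. Lcn2, which encodes lipocalin 2, was 10.08 in exposed mouse 2 and 7.46 to 8.17 in the other exposed mice. It was 11.79 in sham mouse 4 and 6.01 to 7.52 in the other sham mice. The highest exposed mouse was mouse 2 for Lcn2 but mouse 1 for Ltf. Over all probe sets, deviations from the group mean correlated most between exposed mouse 2 and sham mouse 4 (r = 0.43). Aqp5, a water channel, differed by 0.67 ± 0.36 (SE) and Ramp3 by 0.38 ± 0.23. The difference of Aqp5 was 0.35 without exposed mouse 4 and 1.01 without exposed mouse 1, and that of Ramp3 was 0.16 without exposed mouse 2.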

How the data were processed

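Total RNA of each uterus was labelled with biotin and hybridised to an Affymetrix array, per the labels' protocols. The authors deposited 1 table of log2 expression for 22206 probe sets and 8 arrays. The log2 scale is read from the values (2.75 to 13.6). Per the submitters' processing notes, Partek was used. The treatment of background and scale was not given in the sources used here. Sorted columns differ by at most 0.0198, so they were used without further normalization, and a shift shared by all genes would not be seen.

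Symbols came from the platform annotation. Groups were taken from sample titles and compared with limma 3.58.1 (R 4.3.3, lmFit and eBayes, no covariates), with p-values adjusted by Benjamini and Hochberg's method across the whole array and a threshold of 0.05. Relations between mice used exact permutation over 40320 pairings. The fit was tested on simulated data. The members and lists were chosen with earlier results of these data known. Genes named were the members and the 4 genes most like Pgr, Esr1 and Fkbp5. From each list, those at an unadjusted p under 0.05 in limma were named (at most 4, at least 2 of smallest p). Hsp90aa1, Stip1, Ltf, Lcn2 and the markers Fabp4, Prss28, Prss29, Spink1, Cxcl15, Foxa2, Ovgp1 and Pax8 were added after their values were seen. So were the epithelial markers Krt7, Krt8, Krt19, Cdh1, Cldn3 and Cldn7. Genes listed but not measured under their symbols were not analysed here. Alternatives comprised normalization, filters at the 25th and 50th percentile, variance models, array weights, a block on the replicate number, the mean of probe sets, and mice left out.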

Additional observations from a re-analysis of the deposited data

Results flagged for a closer look

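Dixon's test set 1 mouse apart from the rest of its group of 4 in 8 of 64 cases, and about 1 case in 20 would be set apart by chance. That rate holds for independent groups taken at random. These cases share the same arrays and include genes named for small p, so the count cannot be read as an excess. Of the 8 cases set apart, 1 was among the 18 groups of the members. Fkbp4 was 10.155 in sham mouse 4, with the other sham mice at 9.953 to 9.956, and without this mouse the difference was -0.31. Among genes of the lists, Cyb5d2 stood apart in sham mouse 3 (7.90, others 7.48 to 7.55), Hspa4 in sham mouse 2 (10.62, others 10.45 to 10.46), Pelp1 in sham mouse 2 (7.22, others 7.05 to 7.08), Sgk1 in exposed mouse 1 (9.23, others 7.67 to 7.76) and Sox17 in sham mouse 3 (9.52, others 9.21 to 9.25). Sham mouse 4 stood apart in the mean of the smooth muscle markers (10.60, others 10.95 to 11.00) and of the oviduct and ciliated cell markers (6.41, others 6.74 to 6.76).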

How the results depend on the processing

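Over 160 refits of the 9 differences, 156 kept their direction and none passed adjustment (limma, adjusted p from 0.295 to 0.9999). The 4 that changed sign were all of Esr2, at -0.062 with array weights, -0.046 without exposed mouse 1, -0.0094 without exposed mouse 4 and -0.098 without sham mouse 4, within a range of -0.098 to 0.115 with any 1 mouse left out. Esr2 gave no value under the 2 filters on low expression, which leave it out. The filters, variance models, replicate block and mean of probe sets cannot change a member's difference, and normalization left the differences nearly unchanged. Direction was therefore put to the test only by array weights and by leaving mice out. The 2 members at an unadjusted p under 0.05 became 0 without moderation and 1 with array weights. With 1 mouse left out the count was 0 to 2, and it was 0 without exposed mice 2 and 4, which was added after seeing the data. Members whose groups do not overlap numbered 0 to 2 of 9 with 1 mouse left out, where 4.58% to 10.2% of probe sets had such groups, and 1 of 9 without exposed mice 2 and 4, where 12.2% did. Over all probe sets, the count past adjustment was 0 to 1 and the count at an unadjusted p under 0.05 was 726 to 2545 with 1 mouse left out, highest without exposed mouse 1, and 796 above the 50th percentile. With the replicate number as a block, 1 member reached an unadjusted p under 0.05 and the difference was -0.65 for Fkbp5. Mice with the same number were not shown to be paired, as their deviations correlated at -0.24 to 0.085, and the block is given as a value only. Signal over background was not assessed, which limits what can be said of dim genes such as Esr2.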
